A study of Schizosaccharomyces pombe with 4 samples.

Results

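The genes described here encode proteins of the spliceosome that carry the names *prp*, *cwf* or *saf* followed by a number. They were taken as the gene entries of the deposited table whose name has this form. This rule uses names only, though it was chosen with earlier results of these data known. The rule gave 46 of the 5129 protein-coding genes, made of 19 *prp*, 22 *cwf* and 5 *saf* genes.

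NET-Seq, the sequencing of the 3′ ends of RNA still held by RNA polymerase II (RNAPII), was performed in fission yeast (*S. pombe*) of the strain YAM2507, genotype Rpb3-flag exo2-delta. Rpb3 is the RNAPII subunit by which the polymerase was immunoprecipitated, and Exo2 is the cytoplasmic 5′-3′ exoribonuclease whose loss stabilizes the antisense RNAs called XUTs. The nascent RNA (IP) and the control libraries made without purification of RNAPII (input) were each sequenced from biological replicates 1 and 2, so that every group has n = 2 and both carry the deletion and the tag. WT cells were not analysed here, and no effect of the deletion can be read from these values. The table gives 3338808 to 10172688 reads per library over its 9139 features. A single read adds 1 (replicate 1) or 0.474 (replicate 2) to the normalized reads of the IP, and 0.318 or 0.357 to those of the input. The share of tRNA genes was 7.18% and 6.80% in the IP and 73.9% and 75% in the input. The main coding exon of *exo2* held 44 and 86 reads in the IP and 26 and 23 reads in the input, and its IP density of 0.0113 and 0.0104 normalized reads per nt was below the 0.158 and 0.140 of the remaining 392 nt of that gene, which do not belong to this exon. The labels do not say which part of *exo2* was removed.

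The spliceosome is assembled anew on each intron. U1 and U2 snRNPs recognise the 5′ splice site and the branch site, the U4/U6.U5 tri-snRNP joins, and RNA helicases and the Prp19 complex rearrange the RNAs so that branching and exon ligation can take place. In *S. pombe* many components were found as *prp* mutants that fail to process pre-mRNA or as Cwf proteins, which purify with Cdc5, and the Saf proteins were named as splicing-associated factors.

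Some of these genes hold introns themselves, in a share near that of protein-coding genes in general. Introns of 15 nt or more lie between the coding exons of 24 of the 46 genes (52.2%), against 46.4% of the protein-coding genes of chromosomes I to III. Of 59 other spliceosomal genes found by name, 44 (74.6%) hold an intron. There are 42 such introns, from 38 to 485 nt long with a median of 51 nt, and the median over 5046 introns of all genes is 56 nt. All 42 start with GT and end with AG. GTAAGT opens 15 of them (35.7%, against 27.4% of all introns) and GTATGT opens 11 (26.2%, against 19.9%), and CTAAC, a form of the branch site, is found in 23 (54.8%, against 45.0%). Motifs were searched on the transcribed strand only, the first 2 at the first 6 bases, and CTAAC anywhere after these bases and before the last 2. In *cwf22* the gap between the coding exons of the table is 2 nt, which was not counted as an intron.

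The introns of *cwf5* and *cwf10* are shown because each opens with GTAAGT and holds CTAAC, and both genes recur in the results below. *cwf5* encodes an RNA-binding protein of the Prp19 complex and *cwf10* the GTPase of the U5 snRNP. Capitals mark the first 6 bases, CTAAC and the final AG, and the sequences are from the RefSeq assembly ASM294v3, in which the coding exons of both genes are identical to those of the table. *cwf5* lies on the minus strand of chromosome III, with its introns at 1187242 to 1187292 and at 1186825 to 1186884, and *cwf10* on the plus strand of chromosome II, with introns at 4052627 to 4052670, 4053031 to 4053068 and 4053421 to 4053479.
cwf5 intron 1: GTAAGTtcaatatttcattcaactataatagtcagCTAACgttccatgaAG
cwf5 intron 2: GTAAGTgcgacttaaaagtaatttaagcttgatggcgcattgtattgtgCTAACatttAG
cwf10 intron 1: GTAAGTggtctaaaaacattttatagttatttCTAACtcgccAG
cwf10 intron 2: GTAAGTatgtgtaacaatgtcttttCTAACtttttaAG
cwf10 intron 3: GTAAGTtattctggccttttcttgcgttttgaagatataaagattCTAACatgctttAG
Over the 23 introns with CTAAC, 6 to 14 bases follow it up to the end of the intron. The longest intron, 485 nt in *prp19*, opens with GTAAGAtttcct and closes with aagataattgCTAACctttaaacAG.

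The nascent level of the 46 genes was moderate. It is the IP density, the normalized reads per nt of the whole annotated gene, on the log2(density + 0.000118) scale. The median over the 46 genes, each as the mean of the replicates, was -3.90. This is below the -3.55 of all protein-coding genes and the -3.57 of the 59 other spliceosomal genes. In replicates 1 and 2 alone the medians of the 46 genes were -3.86 and -3.87 (SD 0.012, n = 2), both above -3.90. Of the 46, 17 lay above the median protein-coding gene and 29 below. None was among the highest or the lowest 10% of protein-coding genes, 28 were within the middle 50%, 15 in the lowest 25% and 3 in the highest 25%. The replicates placed them in nearly the same order (Pearson's r = 0.970 and Spearman's rho = 0.977 across the 46 genes, which are not independent replicates). In the input, the median was -6.58 against -6.05 for all protein-coding genes, each on the log2(density + 0.0000744) scale.

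**Figure D1:**
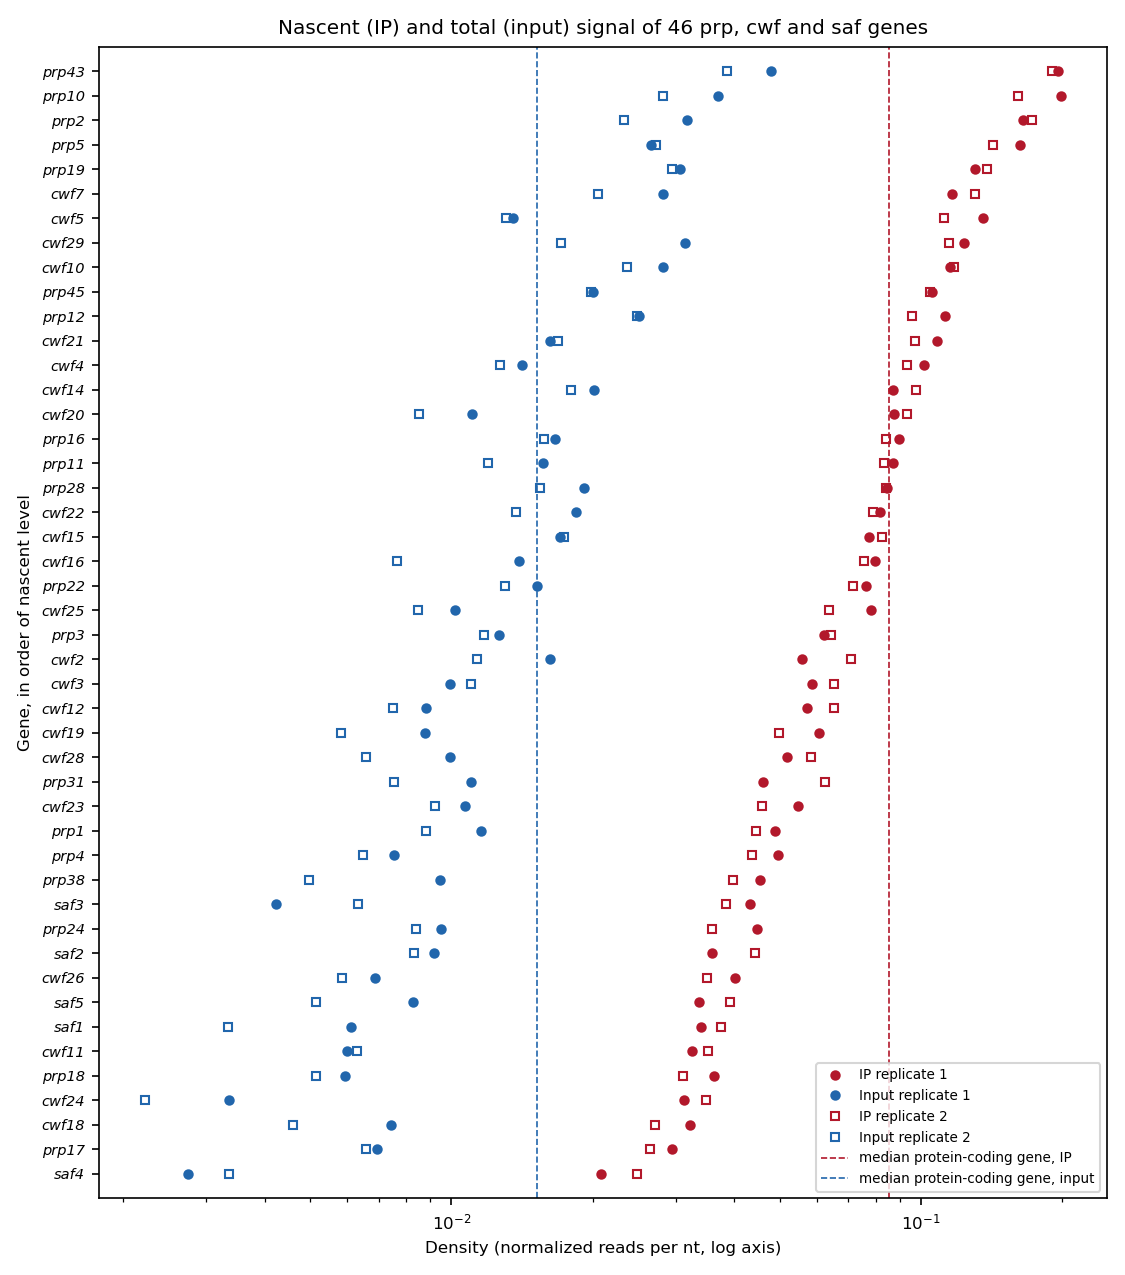
IP density (red) and input density (blue) of each of the 46 genes in normalized reads per nt on a log axis, with replicate 1 as filled circles and replicate 2 as open squares, ordered by nascent level; the dashed lines are the medians of all protein-coding genes. The IP densities run from about 0.0208 for *saf4* to 0.199 for *prp10*, and in each gene both IP points lie to the right of both input points.

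Genes for U2 snRNP and branch site recognition had the highest median nascent level of the role groups, at -2.92, and all 4 lay above the median protein-coding gene. *prp10*, which encodes the SF3B1 protein that clamps the branch site in U2 snRNP, had 728 and 1241 reads in the IP and 425 and 290 in the input, and its IP density was 0.180 ± 0.0270 (SD, n = 2). *prp2*, for the U2AF59 subunit of the factor that recognises the 3′ end of introns, had 318 and 699 reads in the IP and 192 and 126 in the input, with an IP density of 0.169 ± 0.00487. *prp12*, another U2 snRNP-associated protein, had 438 and 786 reads in the IP and 307 and 271 in the input, and a density of 0.104 ± 0.0119. *prp11*, a DEAD-box helicase, stood close to the median protein-coding gene with a density of 0.0853 ± 0.00272. The *prp10* and *prp2* densities differ by less than the spread of *prp10*.

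The core of the Prp19 complex came next, with a median of -3.40 and 6 of 10 genes above the median protein-coding gene. *prp5*, for a WD repeat protein of this complex, had 278 and 515 reads in the IP and 143 and 131 in the input. Its IP density was 0.152 ± 0.0140. *prp19*, the ubiquitin ligase that gives the complex its name, had 278 and 622 reads in the IP and 206 and 177 in the input, with a density of 0.134 ± 0.00555. *cwf4*, a further core subunit, had 237 and 461 reads in the IP and 104 and 83 in the input. All 10 core genes were within the middle 50% of protein-coding genes, and 8 of the 10 hold an intron. *cwf5* and *prp17*, whose products RefSeq also places in the Prp19 complex, were grouped elsewhere.

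RNA helicase genes had a median of -3.56, close to that of all protein-coding genes, but were spread widely. *prp43*, whose product takes the spliceosome apart after splicing, had the highest nascent level of the 46 genes, with 497 and 1020 reads in the IP and 382 and 275 in the input and an IP density of 0.193 ± 0.00378. Its level exceeded that of 81.5% of protein-coding genes. *prp16* and *prp28*, for the helicases that act before exon ligation and at the exchange of U1 for U6, had densities of 0.0871 ± 0.00402 and 0.0845 ± 0.000228. *prp22*, whose product releases the spliced mRNA, followed at 0.0741 ± 0.00335. *cwf11* was the lowest helicase gene at 0.0338 ± 0.00188, and the difference to *prp22* is larger than the spread of either gene.

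*cwf16*, *cwf25*, *prp16*, *prp17* and *prp18* were grouped as factors that act around branching or exon ligation. Their median was -3.82, with *prp16* as the only one of 5 above the median protein-coding gene. The tri-snRNP genes and the kinase gene *prp4* had a median of -4.32, with 1 of 6 above. That gene was *cwf10*, with 394 and 846 reads in the IP and 303 and 227 in the input and a density of 0.116 ± 0.00143. *prp1*, *prp4*, *prp31* and *prp38*, which encode 3 tri-snRNP proteins and the kinase Prp4, had densities between 0.0426 and 0.0542. The 11 remaining *cwf* genes had a median of -4.18 and 4 above the median protein-coding gene. *prp24*, for the RNA-binding protein that assembles U4 with U6 and a member of none of these groups, had 169 and 286 reads in the IP and 113 and 89 in the input.

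The *saf* genes were the lowest group, with a median of -4.78, and all 5 lay in the lowest 25% of protein-coding genes. *saf4* had the lowest density of the 46 genes, 0.0228 ± 0.00291, from 53 and 134 reads in the IP and 22 and 24 in the input. *saf1* had 76 and 177 reads in the IP and 43 and 21 in the input, with a density of 0.0357 ± 0.00249. The 4 densities of *saf1*, *saf2*, *saf3* and *saf5* lay between 0.0357 and 0.0408 and differ by less than the spread of *saf2*, 0.00599. Role groups were described by counts and medians, with no test between them.

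The order at the low end depends on where the annotation ends each gene. After *saf4*, the lowest whole-gene densities were those of *prp17*, a WD repeat protein of the second step, at 0.0280 ± 0.00209, of *cwf18* at 0.0296 ± 0.00362 and of *cwf24*, a zinc finger protein, at 0.0331 ± 0.00255. *prp17* is annotated over 8352 nt, of which 5911 nt lie after the coding exons. Counted over its coding exons alone, with 1677 nt, its IP density was 0.0758 ± 0.00185, and its place among the 46 genes moved from 45 to 25. *cwf14*, with 3042 nt after its coding exons, moved from 14 to 3. Its IP density was 0.186 ± 0.0132 over the coding exons against 0.0924 ± 0.00719 over the whole gene. The place of *cwf14* also rests on a short first coding exon of 32 nt, with 20 and 50 of the 78 and 182 coding reads in the IP. Its second coding exon, of 380 nt, had an IP density of 0.147. *prp3*, with 3660 nt after the coding exons, moved from 24 to 15. In these 3 genes the difference between the densities is larger than the spread of the replicates, while *prp43* kept place 1 and *saf4* moved only from 46 to 45. *cwf18* had 40 and 71 reads in the IP and 29 and 16 in the input. Of the 1242 nt of *cwf18*, 813 lie outside the coding exons. Reads there made 55.0% and 78.9% of its IP reads, against 27.6% and 25% of its input reads. These input shares rest on only 8 and 4 reads.

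**Figure D2:**
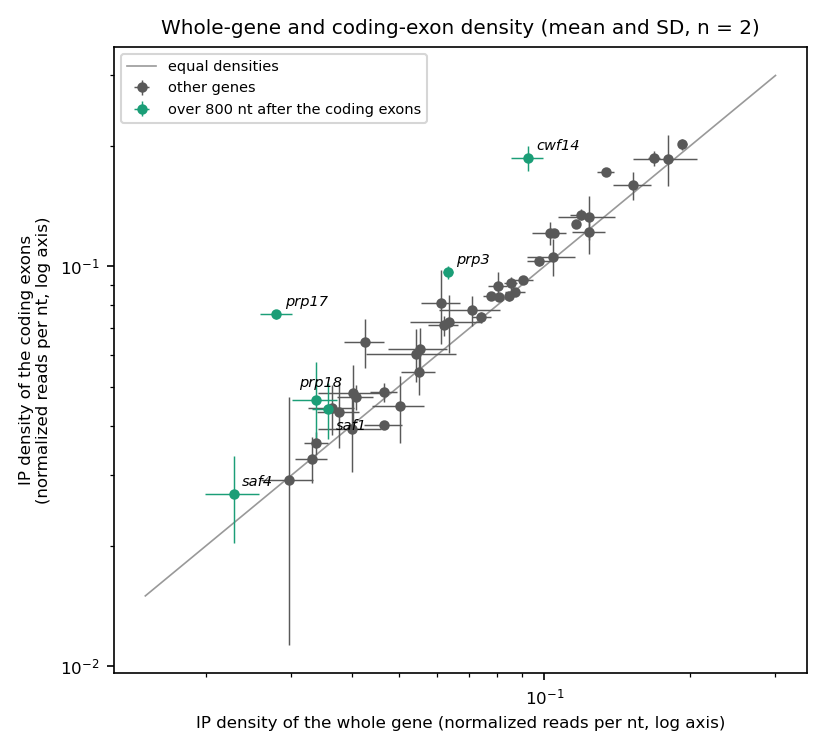
IP density over the coding exons against IP density over the whole gene for the 46 genes, both in normalized reads per nt on log axes, as the mean and SD of 2 replicates; green points are the 6 genes with more than 800 nt annotated after the coding exons, and the line marks equal densities. *prp17*, *cwf14* and *prp3* stand above the line, with 0.0758 against 0.0280 for *prp17*, and most other genes lie near it.

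The comparison of IP with input asks which RNAs are carried by RNAPII beyond their share of total RNA. On the deposited scale, limma with trend over 8651 features (Benjamini-Hochberg adjustment) called all 46 genes higher in the IP. The background is as high, with 91.6% of all features and 98.8% of the 5043 protein-coding genes tested called higher, so the count says nothing particular about these genes. The log2 differences of the 46 genes ran from 2.04 for *prp17* to 3.52 for *cwf24*, with a median of 2.46 against 2.38 for the protein-coding genes tested. Without IP replicate 1 the count was 43 and without IP replicate 2 it was 44, with *prp38* and *cwf29* not called in either.

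The ratio of IP to input was then set relative to the median protein-coding gene of each replicate. On this centred scale the median of the 46 genes was 0.084 ± 0.0095 (SD of the medians of the replicates, n = 2), against 0.0015 for all protein-coding genes and 0.046 for the other spliceosomal genes. The middle 50% of the 46 genes lay between -0.084 and 0.35 and that of all protein-coding genes between -0.30 and 0.33. In both replicates 22 of the 46 genes (47.8%) were above the median protein-coding gene and 11 (23.9%) were below, where 39.1% of protein-coding genes are found on either side, and 13 changed side between the replicates. The replicates ordered the ratios less closely than the levels (r = 0.520 and rho = 0.486 across the 46 genes). The *saf* genes had a median centred ratio of 0.48, with 3 of 5 above in both replicates, and the remaining *cwf* genes one of 0.25, with 7 of 11 above and 0 below in both. The ratio contains the input, and across the 46 genes it ran against the input level with r = -0.504 and rho = -0.438.

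**Figure D3:**
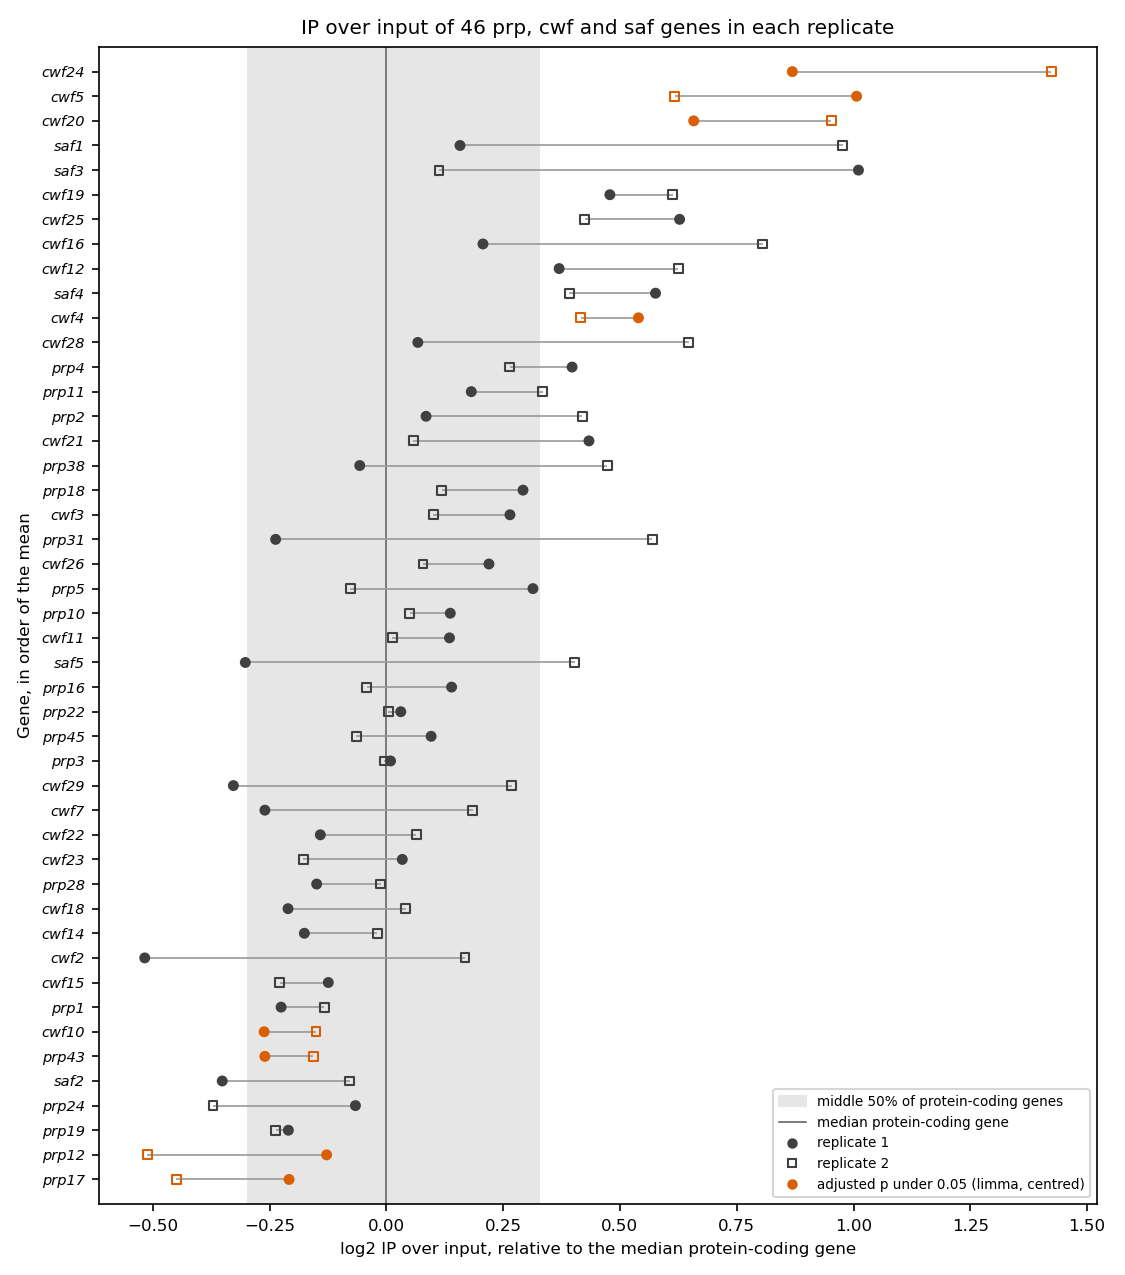
Log2 IP over input of each of the 46 genes relative to the median protein-coding gene of the replicate, with replicate 1 as filled circles and replicate 2 as open squares joined by a line; the grey band is the middle 50% of protein-coding genes and orange marks an adjusted p under 0.05 in limma on centred libraries. In both replicates 8 genes lie above the band (17.4%, against 18.2% of protein-coding genes) and 0 below it (against 18.9%), and *cwf24*, *cwf5* and *cwf20* have the highest means.

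limma was also run with the median protein-coding gene of every library set to 0, and called 4 of the 46 genes higher in the IP and 4 lower. Of the protein-coding genes tested, 10.4% were called higher and 21.4% lower, so that calls in either direction were no more frequent among these genes than in the background. The median difference over protein-coding genes is -0.09 on this scale and not 0, since the median gene of a library and the median ratio are not the same. When the ratios were centred on their own median instead, a choice made after seeing the data, 3 of the 46 genes were called higher and 0 lower. Of the 5043 protein-coding genes tested, 376 were then called higher and 520 lower. At an unadjusted p under 0.05 the counts were 5 higher and 2 lower of the 46, against 831 and 905 of the 5043. The sign of the 8 called differences did not change in any of the 14 alternatives.

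The highest ratio belonged to *cwf24*, with 65 and 153 reads in the IP and 22 and 13 in the input. Its IP density of 0.0312 and 0.0349 was among the lowest of the 46 genes, and its input density of 0.00337 and 0.00223 was above that of only 9.32% of protein-coding genes. The log2 difference was 1.04 (SE 0.246, limma adjusted p = 0.0119), and it was called in 12 of 14 alternatives, with adjusted p from 0.00122 to 0.102. The call was lost without IP replicate 2 (adjusted p = 0.102) and in limma without trend (adjusted p = 0.0675).

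*cwf5* had 159 and 277 reads in the IP and 50 and 43 in the input. It exceeded 66.5% of protein-coding genes in the IP and 44.6% in the input. Its log2 difference was 0.71 (SE 0.163, adjusted p = 0.0109), called in 12 of 14 alternatives (0.00262 to 0.106) and lost without IP replicate 1 (0.106) and in limma without trend (0.0935). *cwf20* had 88 and 198 reads in the IP and 35 and 24 in the input, with a difference of 0.70 (SE 0.191, adjusted p = 0.0235), called in 11 of 14 (0.01 to 0.171), but not without IP replicate 1 or 2. *cwf20* shares 556 of its 1005 nt with *mid1* on the same strand, so that reads of these genes cannot be told apart there. *cwf4* had a difference of 0.37 (SE 0.12, adjusted p = 0.0462) and was called in only 6 of 14 alternatives (0.0193 to 0.249), and in none of the 4 that leave out a library. *saf1* had the fourth highest ratio, 0.16 and 0.98 in replicates 1 and 2, and was not called (difference 0.46, adjusted p = 0.194), except without input replicate 1 (adjusted p = 0.0156).

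The lower calls were small. *prp17*, with 246 and 467 reads in the IP and 182 and 154 in the input, had a log2 difference of -0.43 (SE 0.115, adjusted p = 0.0210) and *prp12* one of -0.42 (SE 0.116, adjusted p = 0.0236), and each was called in 10 of 14 alternatives, but not without IP replicate 2 or without input replicate 2. *prp43* (-0.31, adjusted p = 0.0352) was called in 7 of 14 and *cwf10* (-0.31, adjusted p = 0.0396) in 5. *prp19* missed the threshold with -0.33 and an adjusted p of 0.0587, and passed it with the replicate number as a block (adjusted p = 0.0271). *prp24* was at -0.32 with an adjusted p of 0.127. In all 6 genes both replicates lay below the median protein-coding gene, from -0.07 to -0.51.

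Without IP replicate 1 only *cwf24*, *prp17* and *prp12* were called on this scale, and without IP replicate 2 only *cwf5*. Without input replicate 1, 6 genes were called higher and 3 lower, and without input replicate 2, 4 higher and 1 lower. limma without trend called none of the 46, and 69 higher and 184 lower of the 5043 protein-coding genes. At an unadjusted p under 0.05 it gave 4 higher and 1 lower of the 46, against 551 and 971 of the 5043. edgeR on the recovered reads called 3 higher and 5 lower of the 46, against 526 and 1159 of the 5043.

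Other spliceosomal genes were read beside these. Of the 59, 3 were called higher on the centred scale, namely *rsd1* (1.12, adjusted p = 0.000207), *lsm8* (1.39, adjusted p = 0.00324) and *sde2* (0.77, adjusted p = 0.00875). *lsm8* encodes a subunit of the ring that binds U6 snRNA. Called lower were 8, among them *snu13* (-0.81, adjusted p = 0.000192), *uap56* (-0.67), *brr2* (-0.60) and *spp42* (-0.55), which encode a U4 snRNP protein, an RNA helicase, the helicase that unwinds U4 from U6, and the Prp8 protein at the centre of U5 snRNP. The other 4 were *aar2*, *lsm6*, *lsm7* and *usp107*, from -0.62 to -0.36. Of the protein-coding genes tested, 10.4% were called higher and 21.4% lower on this scale.

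Reads outside the coding exons were counted to see how much signal of these genes comes from introns and untranslated parts. They made 18% and 17.9% of the reads of the 46 genes in the IP and 16.1% and 18.3% in the input. For all protein-coding genes together they made 27.9% and 28% in the IP and 49.1% and 53.6% in the input. These shares are pooled over reads, so that genes with many reads weigh most. The highest input density of a protein-coding gene was 134 normalized reads per nt, against a median of 0.0152. The lengths differ as well, with a median of 378 nt outside the coding exons in the 46 genes and 567 nt in all protein-coding genes. Per nt, the median log2 of the density outside over that within the coding exons was -0.69 and -0.70 in the IP and -0.86 and -0.61 in the input, and for all protein-coding genes -0.71 and -0.76 in the IP and -0.97 and -0.85 in the input. The difference between IP and input in these genes was no larger than that between the input replicates.

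*cwf5* is the only one of the 24 genes with introns whose table entry has no untranslated part, so that its reads outside the coding exons fall within the pair of introns shown above, 111 nt in all. They held 5 reads in each IP replicate (95% exact Poisson interval 1.62 to 11.7, which covers counting error only), and 0 (0 to 3.69) and 2 (0.242 to 7.22) in the input. At the density of the coding exons, 16.1 and 28.3 reads would fall there in the IP and 5.21 and 4.27 in the input. The intron density was thus 31.2% and 17.6% of that of the coding exons in the IP, and 0% and 46.8% in the input, and at this depth a difference between IP and input was not detectable for this gene. Over the 120 protein-coding genes with introns and without annotated untranslated parts, *cwf5* included, the intron density was 23.0% and 23.0% of the coding density in the IP, from 265 and 553 reads, and 12.1% and 12.3% in the input, from 85 and 66 reads.

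Along *cwf5* the signal was highest in the first coding exon. This exon of 276 nt had 79 and 125 reads in the IP and the last, of 432 nt, had 43 and 82, a log2 ratio of densities of 1.52 and 1.25 for first over last. In the input the reads were 16 and 9 in the first against 16 and 19 in the last, with ratios of 0.65 and -0.36. Of the 10 genes whose first and last coding exons are both 100 nt or longer, 7 had the higher density in the first exon in both IP replicates, the same share as the 70.4% of 1082 protein-coding genes. In both input replicates 1 of 10 did, against 34.9% of protein-coding genes. The median log2 ratio over these 10 genes was 0.35 and 0.63 in the IP and -0.05 and -0.28 in the input. *cwf3*, a core subunit of the Prp19 complex, had 85 and 184 reads in its first coding exon of 816 nt and 77 and 187 in the last of 1557 nt in the IP, against 29 and 25, and 55 and 56, in the input. *cwf2* (-0.15 and -0.25) and *cwf22* (-0.02 and -0.07) had the lower density in the first exon in both IP replicates, and *prp17* had ratios of 0.05 and -1.66, which rest on 10 and 11 reads in its first coding exon.

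Antisense XUTs (asXUTs) were annotated over 50 nt or more of 17 of the 46 genes (37.0%), against 21.2% of protein-coding genes, and there were 18 of them. Reads on both strands were counted apart, as *prp5* had 278 and 515 reads in the IP where the asXUT over its start had 1 and 6. In the IP, 16 of the 18 asXUTs had a lower density than the gene opposite in both replicates, and 12 had under 20 reads in both. The genes with an asXUT had a median nascent level of -4.42 and the 29 without one -3.63, with median centred ratios of 0.17 and 0.016. These are descriptions, with no test. Neither the medians nor the count of 16 was set beside the same values for all protein-coding genes. The paper recalls from an earlier study that genes with asXUTs are globally less transcribed than those without. The paper credits its WT libraries to that study, while all libraries used here carry the *exo2* deletion. Without the values for all protein-coding genes, the difference in nascent level cannot be called particular to these genes.

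The longest overlap was that of *XUT1360*, which covers all 3819 nt of *prp22*, its start included. *XUT1360* had 187 and 384 reads in the IP and 96 and 82 in the input, where *prp22* had 292 and 578 in the IP and 183 and 139 in the input. *XUT1351* covers 2073 nt of *cwf19* and had 75 and 110 reads in the IP and 40 and 28 in the input, against 134 and 232, and 61 and 36, for *cwf19*. In these pairs the antisense density in the IP, 0.0459 and 0.0447 for *XUT1360* and 0.0362 and 0.0251 for *XUT1351*, stayed below the sense density of 0.0765 and 0.0717 for *prp22* and of 0.0607 and 0.0498 for *cwf19*. *XUT0100* overlaps 1917 nt of *prp4*, with 21 and 62 reads in the IP and 17 and 8 in the input, against 98 and 182, and 47 and 36, for *prp4*. *XUT0863* covers all of *cwf20*, with 10 and 29 reads in the IP and 7 and 7 in the input. *XUT1518* lies over 810 nt of *saf2* and had 1 and 6 reads in the IP and none in the input, against 46 and 120, and 37 and 30, for *saf2*. *XUT0303*, over 584 nt of *prp16*, had 4 and 8 reads in the IP and 2 and 1 in the input, against 344 and 680, and 200 and 169, for *prp16*.

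**Figure D4:**
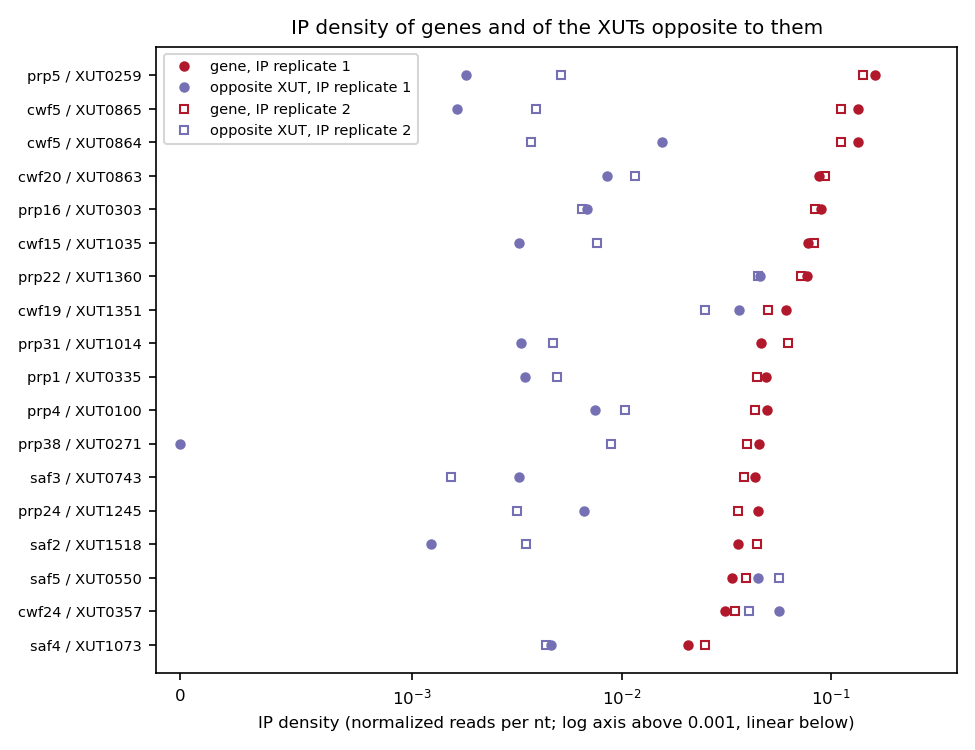
IP density of the genes with an asXUT (red) and of the asXUT opposite (purple), in normalized reads per nt on an axis that is logarithmic above 0.001 and linear below, with replicate 1 as filled circles and replicate 2 as open squares. In 16 of the 18 pairs both red points lie to the right of both purple points of the same replicates, and in *saf5* and *cwf24* the order is the opposite.

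Only opposite *saf5* and *cwf24*, which were singled out after their values were seen, was the asXUT denser than the gene in both IP replicates. *XUT0550*, 201 nt long, had 9 and 24 reads in the IP and none in the input, against 35 and 86 IP reads for *saf5*. *XUT0357*, 267 nt long, had 15 and 23 reads in the IP and 1 and 3 in the input, against 65 and 153 IP reads for *cwf24*. Both asXUTs lie within the protein-coding gene and rest on few reads. *XUT0357* also lies wholly within *SPBC13E7.03c*, a protein-coding gene on its own strand, which had 552 and 1093 reads in the IP. Reads of *XUT0357* and of that gene cannot be told apart, so the order opposite *cwf24* cannot be assigned to the asXUT. Protein-coding genes were annotated opposite to 23 of the 46 genes, over more than 500 nt in 11 of them. The share among all protein-coding genes was not computed, so these counts cannot be called high or low.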

How the data were processed

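NET-Seq IP and input libraries of 1 strain were analysed, 2 biological replicates each. The authors mapped reads with Bowtie, which leaves out reads across spliced junctions in the version used, and kept unique matches to ASM294v2. The counting tool, its strand setting and the normalization factor are not given in the sources used here. The deposited values of IP replicate 1 are whole-number counts per feature. For the other libraries the authors deposited a signal, counts multiplied by 1 factor per library, and for all libraries a density signal per nt. Whole reads were recovered for 100% of values by dividing by the smallest positive value. Columns pooled over replicates were not used.

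IP and input were compared with limma 3.58.1 (trend) on log2(normalized reads + 0.318) over features with reads in at least 2 libraries, on the deposited scale and centred on the median protein-coding gene. edgeR 4.0.16 in R 4.3.3 was an alternative, with TMM and RLE on the centred scale only. Fold changes of low genes are understated on this scale. The labels state that input and IP of a number share the biological sample, and the deviations of same-numbered libraries correlated with r = 0.152 over 4644 protein-coding genes. Fits were also run on simulated data, in which every library started from the mean IP level of each feature. Such data lack the low counts of the input, so they cannot show how the fits behave there. Sequences and coding exons were read from RefSeq ASM294v3, whose chromosomes I and III are as long as the last positions of the table; all 46 genes matched by locus tag, 44 with identical coding exons.

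Values in every library are given for the 4 genes with the highest and the lowest IP density, the 4 with the highest and lowest centred ratio, genes called on the centred scale, and the 6 asXUT pairs with the longest overlap. The members, role groups and lists were chosen with earlier results of these data known. Of 85 other spliceosomal names, 59 were found.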

Additional observations from a re-analysis of the deposited data

How the results depend on the processing

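On the deposited scale the count of 46 genes called higher stayed within 43 to 46 in every alternative, 43 and 44 being the counts without 1 IP library, and the replicate block gave 46. On the centred scale the count of 8 called genes was 1 to 9 when 1 library was left out, 0 in limma without trend, 3 when centred on the median ratio, and 9 with the replicate block, which added *prp19* and changed no other call. The median nascent level of -3.90 was -3.88 with a pseudocount 10 times larger, -3.99 for the 41 genes without another feature on the same strand, and -3.87 to -3.86 in 1 replicate alone. It was 7.08 for normalized reads per gene, which is another unit. Per nt of the coding exons it was -3.67, against -3.31 for all protein-coding genes and -3.15 for the 59 other spliceosomal genes. The median centred ratio of 0.084 was 0.072 and 0.11 with a pseudocount 10 times smaller and larger, 0.15 as a mean, 0.093 without the same-strand overlaps, 2.46 when not centred, and 0.076 to 0.090 in 1 replicate alone. The share of reads outside the coding exons was 17.9% to 18% in the IP and 16.1% to 18.3% in the input. With 13 to 52 reads at the lowest and the median gene of input replicate 2, counting error in the input limits the ratio of single genes.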

Other observations

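Other antisense transcripts are annotated opposite these genes beside the XUTs. *cwf28-antisense-1*, which overlaps *cwf28* over 1400 nt, had 57 and 126 reads in the IP and 15 and 15 in the input. *cwf28* itself had 73 and 173 in the IP and 44 and 26 in the input. The antisense entry starts at 3991620, within *fes1*, which ends at 3991685 on the same strand. *fes1* had 232 and 630 reads in the IP, and reads of the shared stretch cannot be told apart. A transcription unit opposite *cwf24* with 402 nt of overlap had 34 and 73 reads in the IP and 13 and 5 in the input. It lies within *SPBC13E7.03c* on the same strand, so that its reads cannot be told apart from those of that gene. *cwf10-antisense-1*, over 1816 nt of *cwf10*, had 6 and 13 reads in the IP and 0 and 1 in the input, and *prp2-antisense-1*, over 740 nt of *prp2*, had 2 and 6 reads in the IP and 0 and 3 in the input. *cwf4-antisense-1*, over 1231 nt of *cwf4*, had 2 and 4 reads in the IP and 6 and 3 in the input. None of these overlaps was part of a comparison.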
